A study of Homo sapiens with 11 samples.

Results

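The enzymes that make serine from glucose and pass its carbon to folate were followed at the level of their transcripts in cells labelled HEK293T, a human line derived from embryonic kidney that carries viral T antigen, although the growth protocol names HEK293, its parent line. The 10 genes were chosen by symbol from the pathway, with earlier results of these data known. Shares over all genes given beside counts of these genes therefore describe the list and do not test it. In serine synthesis the genes are PHGDH, PSAT1 and PSPH, with SHMT1 and SHMT2 at the branch to glycine. MTHFD2, MTHFD2L, MTHFD1L and ALDH1L2 belong to mitochondrial folate metabolism, and MTHFD1 to the cytosol. The list holds 10 of the 27671 genes in the count table, and all 10 were among the 15591 genes with enough counts to be tested. The 4 groups were cells given the compound A8 at 10 µM together with ISRIB (3 libraries), 10 µM A8 alone (3), ISRIB in the DMSO vehicle (2, after the submitters excluded another for quality) and DMSO alone (3). The treatment lasted 8 h by the sample labels and 4 h by the treatment protocol, the sources used here do not settle which holds, and they do not give the concentration of ISRIB. All libraries came from a single line without genetic change between groups, and the replicates are called biological in the series' design.

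In serine synthesis PHGDH, the first enzyme of the branch, oxidizes the glycolytic intermediate 3-phosphoglycerate, PSAT1 transaminates the product with glutamate, and PSPH removes the phosphate. SHMT2 in mitochondria and SHMT1 in the cytosol split serine into glycine and a carbon unit carried by tetrahydrofolate, which is then oxidized stepwise to formate for the synthesis of purines, thymidylate and methyl groups. In mammalian cells several of these genes are known targets of ATF4, the transcription factor whose translation rises when eIF2 is phosphorylated in the integrated stress response. ISRIB binds the exchange factor eIF2B and dampens that response, and the series title places A8 in the same pathway through RIG-I, a sensor of viral RNA.

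The libraries held 34072107 to 35318111 counts each and detected 17892 to 18017 genes. Levels are given as CPM, counts relative to the depth of each library, after TMM scaling, which corrects for differences in RNA composition between libraries. The TMM factor of A8 with ISRIB replicate 3 was 0.938, against 0.985 to 1.02 in the other libraries. Of the markers of the line, VIM lay between 630.4 and 755 CPM, KRT8, KRT18, NEFL and NEFM each reached at least 33.1 CPM in every library, and PAX2, a kidney marker, lay at only 0.99 to 2.14 CPM. Among markers of other cells PTPRC, CD3E, PECAM1 and KRT5 had 0 counts in all libraries, CDH5, DCN, ALB, APOA1 and DES reached at most 0.599 CPM, and COL1A1 of fibroblasts lay at 15.7 to 21.2 CPM. As RNA was measured in bulk, fewer cells expressing a gene and less RNA per cell cannot be told apart. Across genes the log2 fold change of A8 against DMSO was lower at higher GC content of the transcript (Spearman's rho -0.30, over genes, which are not independent replicates), and that of DMSO with ISRIB against DMSO was so more (rho -0.47). The transcripts of PSAT1, MTHFD2 and ALDH1L2 had a GC content of 42.3%, 41.4% and 42.1%, so values with this trend removed from each library are given where they change a call.

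The start regions of the genes are shown because several of the genes had a like pattern over the groups. The motifs searched, among them the response element of ATF4 and its partners, are short and can be read directly. RefSeq (GRCh38.p14) held windows for 7 of the 10 genes, running from 250 bases before to 50 bases after each annotated start, in 11 windows, and none was at hand for PSPH, SHMT2 and ALDH1L2. The 250 bases before the start are printed 5′ to 3′ on the plus strand for PSAT1 (chr9:78296875-78297124) and MTHFD2 (chr2:74198365-74198614), the 2 genes called higher with A8 by edgeR. They are also printed for MTHFD1L (chr6:150866236-150866485), which held the response element core and was higher in every A8 library than in DMSO but not called, and for MTHFD1 (chr14:64388103-64388352), whose groups overlapped. Capitals mark matches to the motifs searched.
PSAT1: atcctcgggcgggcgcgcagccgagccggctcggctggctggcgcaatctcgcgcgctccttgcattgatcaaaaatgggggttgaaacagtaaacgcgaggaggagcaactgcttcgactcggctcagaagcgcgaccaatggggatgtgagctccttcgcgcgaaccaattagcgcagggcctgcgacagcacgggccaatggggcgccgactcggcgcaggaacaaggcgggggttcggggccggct
MTHFD2: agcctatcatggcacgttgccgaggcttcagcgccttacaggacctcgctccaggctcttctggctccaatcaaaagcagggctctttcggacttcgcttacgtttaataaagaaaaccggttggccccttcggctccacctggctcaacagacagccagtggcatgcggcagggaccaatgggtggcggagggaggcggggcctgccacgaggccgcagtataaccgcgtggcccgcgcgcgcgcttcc
MTHFD1L: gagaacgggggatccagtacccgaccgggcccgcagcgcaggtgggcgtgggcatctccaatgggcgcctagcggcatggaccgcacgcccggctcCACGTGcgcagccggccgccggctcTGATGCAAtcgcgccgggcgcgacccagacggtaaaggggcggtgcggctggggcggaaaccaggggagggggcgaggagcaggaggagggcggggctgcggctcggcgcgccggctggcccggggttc
MTHFD1: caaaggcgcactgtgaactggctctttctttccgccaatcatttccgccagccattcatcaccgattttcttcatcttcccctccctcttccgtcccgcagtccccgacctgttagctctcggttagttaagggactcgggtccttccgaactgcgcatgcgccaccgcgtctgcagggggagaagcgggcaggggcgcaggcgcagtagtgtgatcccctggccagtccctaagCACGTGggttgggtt
Each window was searched on both strands for TGATGNAA, the core of the C/EBP-ATF response element, for the cyclic AMP response element TGACGTCA, and for the E-box CACGTG. The response element core was found in MTHFD1L, as TGATGCAA beginning 129 bases before the start, with an E-box beginning 154 bases before it and no overlap between the 2 matches, and 2 of its other 3 windows, with nearby starts, held the same site. MTHFD1 held an E-box that began 15 bases before its start. Among all 35116 RefSeq windows of this length 3.62% held the response element core, 1.85% the cyclic AMP element and 7.26% the E-box. These shares are per window, whereas MTHFD1L had 4 windows. Of the 7 genes 1 held the response element core, 0 the cyclic AMP element and 2 the E-box. PSAT1, MTHFD2, PHGDH, MTHFD2L and SHMT1 had no match to these letters within their windows, which says nothing of the sequence outside them.

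Levels per length of transcript spanned a wide range and fell into 3 tiers in DMSO cells. PHGDH (227.5 ± 7.2 CPM per kilobase, SD, n = 3), SHMT2 (179 ± 9) and MTHFD1 (148 ± 6) were highest. PSAT1 (43.3 ± 2.1), MTHFD1L (37.1 ± 2.8), MTHFD2 (32.5 ± 1.1) and SHMT1 (22.9 ± 0.8) formed the middle, each above the next in every library. ALDH1L2 (4.63 ± 0.88), MTHFD2L (4.58 ± 0.44) and PSPH (4.26 ± 0.25) were lowest, and their libraries overlapped. In A8 cells ALDH1L2 (6.65 ± 0.38 CPM per kilobase), PSPH (5.56 ± 0.51) and MTHFD2L (4.52 ± 0.20) separated in this order, and MTHFD1L and MTHFD2 overlapped. In cells given A8 with ISRIB, PSAT1 (35.7 ± 0.4 CPM per kilobase) lay below MTHFD1L (38.1 ± 0.6), the reverse of their order in the other 3 groups. These orders depend on the single transcript whose length was used for each gene. In CPM without division by length PSAT1 lay below MTHFD1L in every group, as at 94.7 and 133.9 CPM in DMSO. ALDH1L2 then had 35.0 CPM in DMSO, against 10.5 for MTHFD2L and 9.27 for PSPH.

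**Figure D1:**
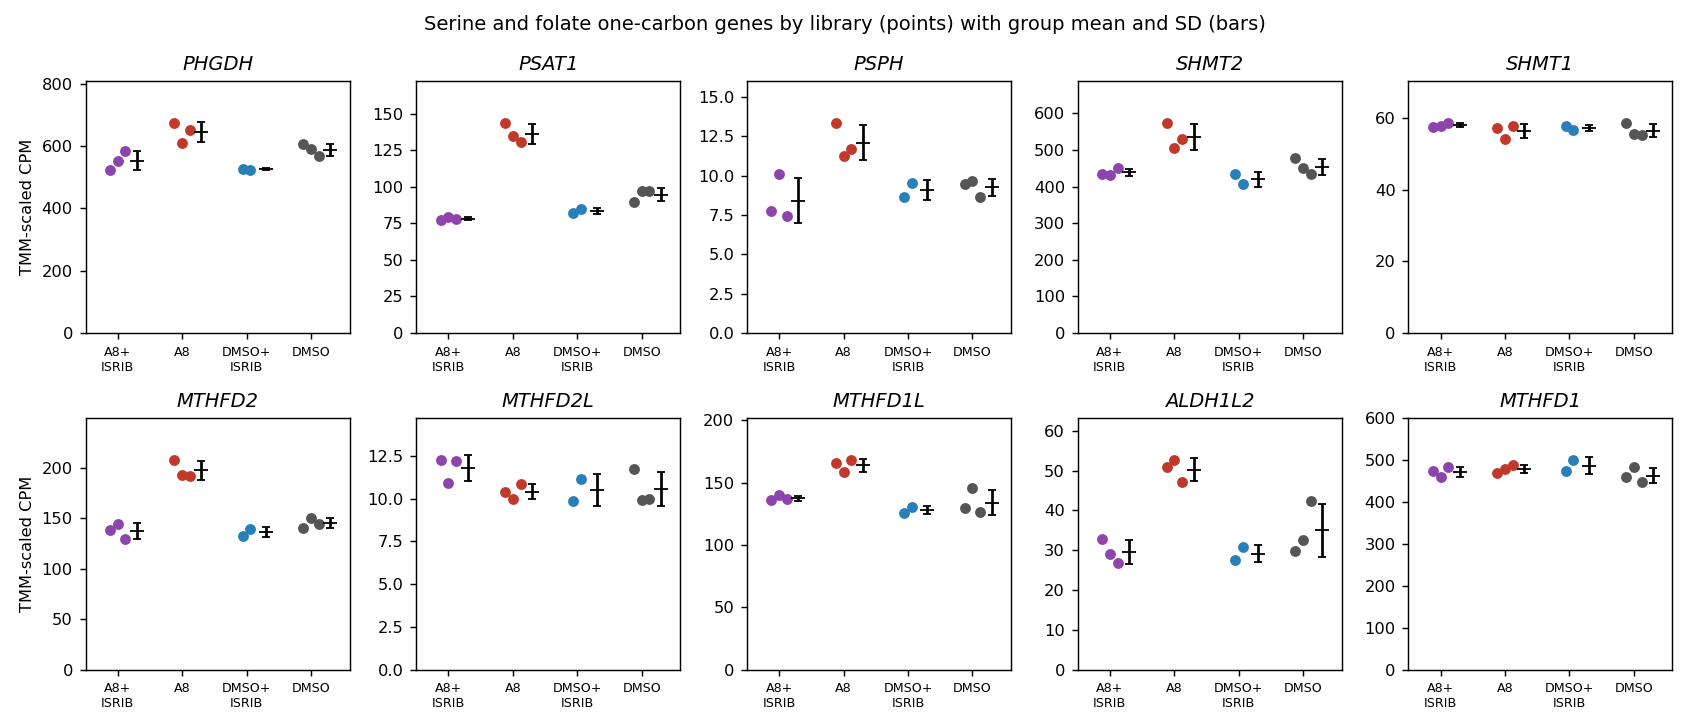
TMM-scaled CPM of the 10 genes in each library, with the mean and SD of each group beside its points and every axis starting at 0. For PHGDH, PSAT1, PSPH, SHMT2, MTHFD2, MTHFD1L and ALDH1L2 the 3 A8 libraries lie above all others, while SHMT1 and MTHFD1 overlap across the groups.

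The comparison of A8 with DMSO asked how the compound alone changed these transcripts. With A8, PSAT1, the aminotransferase of serine synthesis, rose by 44.0% and MTHFD2, the mitochondrial methylenetetrahydrofolate dehydrogenase, rose by 36.0%, by edgeR's quasi-likelihood test at an adjusted p under 0.05 over all genes. These 2 of 10 genes stand beside 0.0834% of all genes tested that were called higher and 0.0577% called lower. The DESeq2 Wald test called 5 of them, with SHMT2, MTHFD1L and ALDH1L2 added, against 0.378% of all genes called higher. At an unadjusted p under 0.05 edgeR had 7 of the 10 higher, against 4.9% of all genes, and 0 lower, against 5.34%. In 7 of the 10, PHGDH, PSAT1, PSPH, SHMT2, MTHFD2, MTHFD1L and ALDH1L2, every A8 library lay above every DMSO library, as it did in 8.47% of all genes. The median log2 fold change of the 10 genes was 0.26, against 0.01 over all genes, and 8 of the 10 were above 0, against 51.8% of all genes.

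In serine synthesis PSAT1 had 144, 135 and 130.3 CPM in the A8 libraries, against 89.4, 97.3 and 97.2 CPM in the DMSO libraries. The 3 A8 libraries stood well clear of the DMSO libraries, and the log2 fold change was 0.53 (SE 0.06, 95% interval 0.40 to 0.65, edgeR adjusted p = 0.000282). PHGDH, the dehydrogenase before it, had 674, 611 and 650.3 CPM in the A8 libraries, against 606, 589 and 569 CPM in the DMSO libraries. The lowest A8 library exceeded the highest DMSO library by only a small margin, and the log2 fold change of 0.13 (SE 0.06) did not pass the test (edgeR adjusted p = 0.468). PSPH, the phosphatase after PSAT1, had 13.4, 11.3 and 11.7 CPM in the A8 libraries, against 9.50, 9.65 and 8.66 CPM in the DMSO libraries. The groups did not overlap and the log2 fold change was 0.38 (SE 0.12, 95% interval 0.13 to 0.64), yet the adjusted p was 0.277 in edgeR. PSPH has a near-identical pseudogene, and the deposited counts do not show how reads common to both were assigned.

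At the branch to glycine SHMT2 had 574, 505 and 529 CPM in the A8 libraries, against 478, 449 and 436 CPM in the DMSO libraries. A8 replicate 1 was the highest, and the groups did not overlap, but the log2 fold change of 0.24 (SE 0.06) had an edgeR adjusted p of 0.182. SHMT1, its cytosolic counterpart, had 57.3, 54.1 and 57.9 CPM in the A8 libraries, against 58.6, 55.6 and 55.3 CPM in the DMSO libraries. These overlapped fully, with a log2 fold change of -0.0025 whose 95% interval ran from -0.13 to 0.13.

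Of the mitochondrial folate enzymes MTHFD2 had 208, 192 and 191 CPM in the A8 libraries, against 140.4, 150.3 and 144 CPM in the DMSO libraries. Every A8 library lay above every DMSO library, with a log2 fold change of 0.44 (SE 0.06, 95% interval 0.31 to 0.57, edgeR adjusted p = 0.0023). ALDH1L2, which oxidizes formyl-tetrahydrofolate in mitochondria, had 50.9, 52.7 and 47.1 CPM in the A8 libraries, against 29.9, 32.5 and 42.5 CPM in the DMSO libraries. DMSO replicate 3 was far above the other DMSO libraries and close to the A8 libraries. The log2 fold change was 0.52 (SE 0.11) with an edgeR adjusted p of 0.0786, and without DMSO replicate 3 it was 0.69 with an adjusted p of 0.0031. MTHFD1L, which makes formate from formyl-tetrahydrofolate, had 165, 158 and 168 CPM in the A8 libraries, against 129.8, 145 and 127 CPM in the DMSO libraries. It did not overlap either, and its log2 fold change of 0.29 (SE 0.06) had an edgeR adjusted p of 0.0755. Without A8 with ISRIB replicate 3, the library with the low TMM factor, MTHFD1L passed at an adjusted p of 0.0478 and ALDH1L2 at 0.0373, and with the GC trend removed they passed at 0.0489 and 0.047. With each of the 11 libraries left out in turn, ALDH1L2 was called in only 2 fits and MTHFD1L in only 1.

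MTHFD2L, a second mitochondrial dehydrogenase of low abundance, ranged from 9.96 to 10.9 CPM in the A8 libraries and from 9.93 to 11.7 CPM in the DMSO libraries. MTHFD1, the cytosolic enzyme that joins 3 such reactions, ranged from 469 to 488 CPM in the A8 libraries and from 447 to 483 CPM in the DMSO libraries. Both groups overlapped for both genes, with log2 fold changes of -0.02 (95% interval -0.24 to 0.20) and 0.05 (95% interval -0.07 to 0.16). The 10 transcripts together made up 0.225% to 0.234% of the counts in the A8 libraries, against 0.196% to 0.206% in the DMSO libraries.

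**Figure D2:**
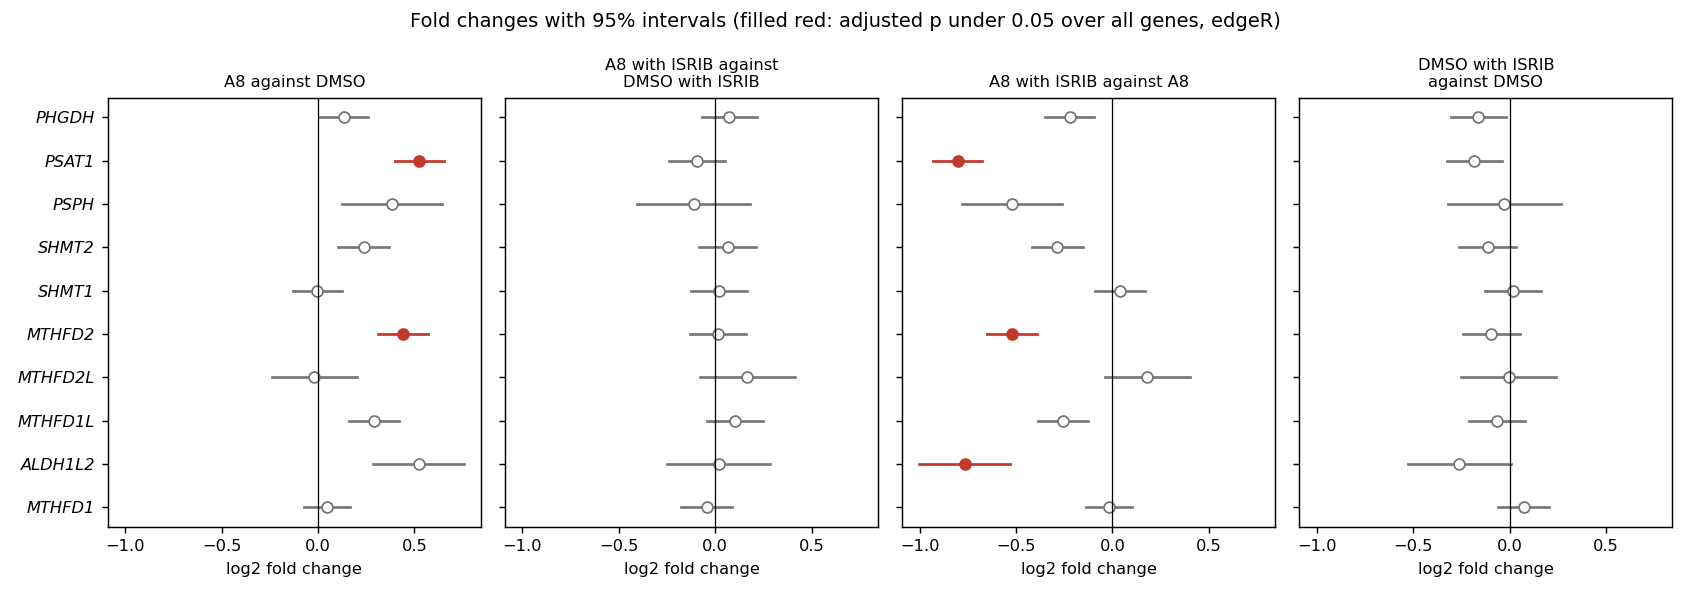
Log2 fold changes of the 10 genes with their 95% intervals in 4 comparisons, with genes at an edgeR adjusted p under 0.05 filled in red. PSAT1 and MTHFD2 pass in A8 against DMSO (0.53 and 0.44), and PSAT1, MTHFD2 and ALDH1L2 pass in A8 with ISRIB against A8 (-0.80, -0.52 and -0.77).

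The comparison of A8 with ISRIB against A8 asked what ISRIB did in the presence of the compound. PSAT1 fell by 42.7%, MTHFD2 fell by 30.3% and ALDH1L2 fell by 41.2% when ISRIB was added, and 3 of 10 genes were thus called lower, against 0.16% of all genes tested (and 0.0192% called higher). The DESeq2 Wald test called 6, with PSPH, SHMT2 and MTHFD1L added, against 0.263% of all genes called lower. The 7 genes that had stood above DMSO in every A8 library stood below A8 in every library with ISRIB, against 5.98% of all genes. The 2 comparisons share the A8 libraries, so high values there enter both. The median log2 fold change of the 10 genes was -0.27, against -0.00085 over all genes.

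PSAT1 had 77.5, 79.2 and 77.7 CPM in the libraries with A8 and ISRIB, against 144, 135 and 130.3 CPM in those with A8. The libraries with both agents lay close together and far below the A8 libraries, with a log2 fold change of -0.80 (SE 0.06, edgeR adjusted p = 1.49e-06). MTHFD2 had 138, 145 and 129 CPM with A8 and ISRIB, against 208, 192 and 191 CPM with A8. All 3 lay below the A8 libraries, with a log2 fold change of -0.52 (SE 0.06, edgeR adjusted p = 0.000272). ALDH1L2 had 32.8, 29.0 and 26.7 CPM with A8 and ISRIB, against 50.9, 52.7 and 47.1 CPM with A8. Its log2 fold change was -0.77 (SE 0.11, edgeR adjusted p = 0.00333), and no library of one group reached the other.

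PSPH had 7.75, 10.1 and 7.42 CPM with A8 and ISRIB, against 13.4, 11.3 and 11.7 CPM with A8, and replicate 2 with ISRIB was nearest to the A8 libraries. Its log2 fold change of -0.52 (SE 0.12) had an edgeR adjusted p of 0.201, and of 0.0494 without that library. With each of the 11 libraries left out in turn, PSPH was called in only that 1 fit. SHMT2 had 435, 433 and 451 CPM with A8 and ISRIB, against 574, 505 and 529 CPM with A8 (log2 fold change -0.29, edgeR adjusted p = 0.133, and 0.0273 with the GC trend removed). It was called in 0 of the 11 fits with 1 library left out. MTHFD1L had 136, 139.8 and 137 CPM with A8 and ISRIB, against 165, 158 and 168 CPM with A8 (log2 fold change -0.25, edgeR adjusted p = 0.231). PHGDH had 524, 551 and 584 CPM with A8 and ISRIB, against 674, 611 and 650.3 CPM with A8 (log2 fold change -0.22, edgeR adjusted p = 0.403). None of these 4 passed, although no library of one group reached the other. MTHFD2L ran the other way, with each library given both agents just above every A8 library, as in 5.09% of all genes. It averaged 11.8 ± 0.8 CPM with A8 and ISRIB and 10.4 ± 0.5 CPM with A8 (SD, n = 3 each), which did not pass (log2 fold change 0.18, edgeR adjusted p = 0.892). SHMT1 (log2 fold change 0.04) and MTHFD1 (log2 fold change -0.02) overlapped between the groups.

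DMSO with ISRIB against DMSO asked what ISRIB did without the compound. By edgeR no gene of the 10, and none of the 15591 tested, passed in either direction (0% called), while at an unadjusted p under 0.05 there were 623 genes higher (4%) and 871 lower (5.59%), and DESeq2 called 1 higher and 33 lower (0.212%). Of the 10 genes, PHGDH and PSAT1 had an unadjusted p under 0.05, both lower, and DESeq2 called 0. PSAT1 had 81.9 and 84.9 CPM with ISRIB, against 89.4, 97.3 and 97.2 CPM in DMSO, and its log2 fold change of -0.18 (SE 0.07) had an edgeR adjusted p of 0.454. PHGDH had 528 and 524 CPM with ISRIB, against 606, 589 and 569 CPM in DMSO, with a log2 fold change of -0.16 (SE 0.07, edgeR adjusted p = 0.482). Under settings other than left-out libraries the value of PHGDH ran from -0.17 to -0.08 and that of PSAT1 from -0.27 to -0.18. SHMT2 and MTHFD2 were also lower in both ISRIB libraries than in any DMSO library, by log2 fold changes of -0.11 and -0.09. These 4 of 10 genes without overlap stand beside 15.1% of all genes in a comparison with only 2 libraries on 1 side. ALDH1L2 had 27.6 and 30.7 CPM with ISRIB, against 29.9, 32.5 and 42.5 CPM in DMSO, which overlapped.

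A8 with ISRIB against DMSO with ISRIB asked what the compound did when ISRIB was present. None of the 10 genes passed by edgeR, where 0.00641% of all genes did in each direction. At an unadjusted p under 0.05 there were 0 of the 10, against 4.75% of all genes higher and 3.57% lower. DESeq2 called 0, against 0.276% of all genes higher and 0.115% lower. MTHFD1L was higher and PSAT1 lower without overlap between the libraries, as were 12.8% and 12.3% of all genes. PSAT1 had a log2 fold change of -0.09 (95% interval -0.24 to 0.05), MTHFD2 one of 0.02 (-0.13 to 0.16) and ALDH1L2 one of 0.02 (-0.25 to 0.29). The largest value was that of MTHFD2L, 0.17, and the adjusted p-values of the 10 genes ran from 0.739 to 0.983 in edgeR. Against plain DMSO, PSAT1 lay lower in every library given A8 with ISRIB, at 77.5 to 79.2 CPM, against 89.4 to 97.3 CPM in DMSO, as in 6.57% of all genes. That log2 fold change of -0.28 (SE 0.06) had an edgeR adjusted p of 0.284, and DESeq2 gave an adjusted p of 0.0183, with 0.128% of all genes called lower by that test. None of the 10 was called there by edgeR, where 0.0192% of all genes were called lower and 0% higher, and 2 of them, PSAT1 and ALDH1L2, were lower at an unadjusted p under 0.05, against 4.04% of all genes.

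The interaction tested directly whether the effect of A8 differed with ISRIB. PSAT1 passed by edgeR, at -0.62 on the log2 scale (SE 0.09, 95% interval -0.81 to -0.43, adjusted p = 0.0243), 1 of 10 genes beside 0.0128% of all genes called in that direction. With each of the 11 libraries left out in turn, the call held in 4 fits, with adjusted p-values from 0.0159 to 0.356 and values from -0.66 to -0.58. It was lost without A8 replicate 1 or 2, A8 with ISRIB replicate 1 or 2, DMSO replicate 2, or either DMSO with ISRIB library. Removing the GC trend, which across genes correlated with the interaction (Spearman's rho 0.45), gave -0.52 with an adjusted p of 0.113. ALDH1L2 at -0.50, PSPH at -0.49 and MTHFD2 at -0.43 did not pass in edgeR (adjusted p = 0.460, 0.518 and 0.241), although DESeq2 gave MTHFD2 an adjusted p of 0.0135 and so called 2 of the 10, against 0.0577% of all genes. The remaining 6 genes lay between -0.19 and 0.19.

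The balance between related enzymes was then compared within each library, where a ratio of counts does not depend on scaling. SHMT2 counts were 7.56, 7.48 and 7.69 times those of SHMT1 with A8 and ISRIB, 10.0, 9.33 and 9.15 times with A8, and 8.16, 8.09 and 7.88 times in DMSO. MTHFD2 counts were 11.3, 13.3 and 10.6 times those of MTHFD2L with A8 and ISRIB, 20.0, 19.3 and 17.6 times with A8, and 12.0, 15.1 and 14.4 times in DMSO. The ratio of MTHFD1L to MTHFD1 was 0.286, 0.304 and 0.282 with A8 and ISRIB, 0.353, 0.330 and 0.345 with A8, and 0.282, 0.301 and 0.283 in DMSO. All 3 ratios were thus higher in each A8 library than in any library of the other 2 groups. In A8 against DMSO the mean log2 ratios differed by 0.24 for SHMT2 over SHMT1, 0.25 for MTHFD1L over MTHFD1 and 0.46 for MTHFD2 over MTHFD2L. In A8 with ISRIB against A8 they differed by -0.33, -0.24 and -0.70. Each of these 6 tests gave an exact two-sided permutation p of 0.1 (0.1 after Benjamini-Hochberg adjustment over the 6), which is the smallest p that 3 libraries against 3 allow.

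**Figure D3:**
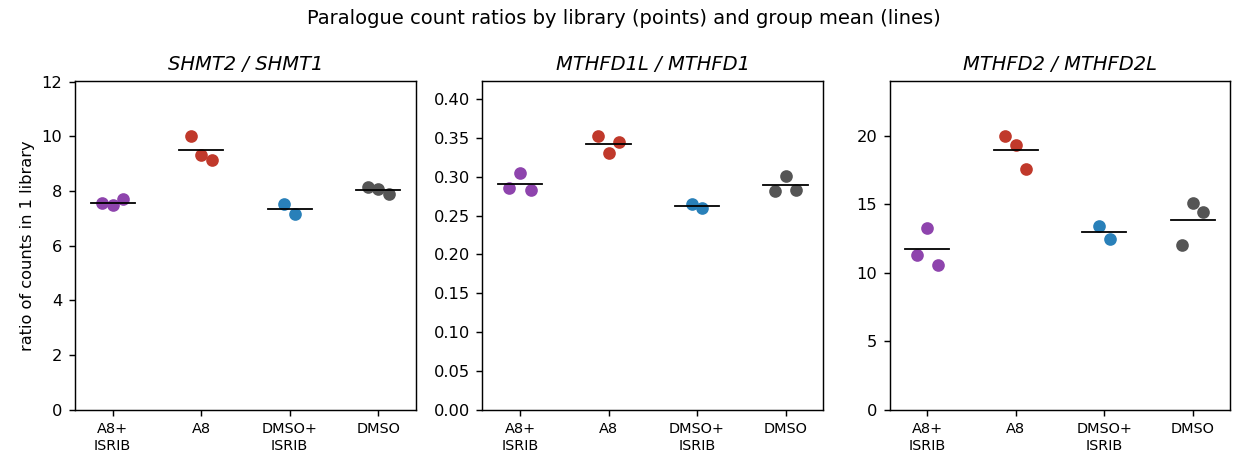
Ratio of the counts of the first-named gene to those of the second in each library, with lines at the group means and axes starting at 0. For all 3 pairs the 3 A8 libraries lie above every library of the other groups, as in MTHFD2 over MTHFD2L, where they reach 17.6 to 20.0 and DMSO libraries 12.0 to 15.1.

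The genes varied together to different degrees over the 11 libraries, which share their groups, so the following correlations describe the libraries and carry no test. PSAT1 and MTHFD2 had a Pearson correlation of log2 CPM of 0.97, PHGDH and SHMT2 one of 0.94, and PSAT1 and ALDH1L2 one of 0.93. MTHFD1 had correlations of -0.08 to 0.27 with the other 9 genes. Outside the 10, the genes most alike to PSAT1 were SLC6A9, a glycine transporter (0.98), MARS, the methionyl-tRNA synthetase (0.96), and GPT2, an alanine aminotransferase (0.95). MTHFD2 was most like ASNS, the asparagine synthetase (0.97), CARS, the cysteinyl-tRNA synthetase (0.97), and YARS, the tyrosyl-tRNA synthetase (0.96). PHGDH was most like ABHD16A, a lipid hydrolase (0.97), MARS (0.94) and PYCR1, of proline synthesis (0.93). PSPH was most like IFRD1, a transcriptional coregulator (0.94), CARS (0.92) and PPP2R5C, a phosphatase subunit (0.89).

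The other genes of serine, glycine, folate and methionine metabolism were read from 4 lists of 49 genes, also chosen with earlier results known. Shares over all genes thus describe these lists too and do not test them. Of the 49 genes 40 could be tested, and 9, such as FOLR2, SDS and BHMT, had at most 12 counts in any library. A8 raised 2 of these 40, SLC6A9 and CTH, by edgeR, against 0.0834% of all genes. DESeq2 called 3 of the 40 higher, against 0.378% of all genes, and 6 had an unadjusted p under 0.05, against 4.9%. None was lower at any of these thresholds, and 27 of the 40 had a log2 fold change above 0 (median 0.08), against 51.8% of all genes. SLC6A9, which carries glycine into the cell, averaged 57.0 ± 8.0 CPM in A8 libraries and 28.8 ± 3.0 CPM in DMSO libraries (SD, n = 3 each). Its log2 fold change was 0.99 (edgeR adjusted p = 0.000119). CTH, which releases cysteine from cystathionine, averaged 30.6 ± 2.9 CPM in A8 libraries and 17.0 ± 2.8 CPM in DMSO libraries (SD, n = 3 each). Its log2 fold change was 0.85 (edgeR adjusted p = 0.00233). The other gene called by DESeq2, SLC1A4, stood at 0.69 (adjusted p = 0.0751 in edgeR and 0.00231 in DESeq2). SLC1A5 stood at 0.19 (edgeR adjusted p = 0.276). Both genes were higher in every A8 library than in any DMSO library, as were 8.47% of all genes. None of the 15 tested genes of folate supply and use passed by edgeR or DESeq2, and 1 had an unadjusted p under 0.05. Among them MTFMT, which formylates the mitochondrial initiator tRNA, stood at 0.14 and SLC19A1, the reduced folate carrier, at -0.12. None of the 10 tested genes of glycine cleavage and of serine and glycine breakdown passed by edgeR or DESeq2, and 0 had an unadjusted p under 0.05, with SRR, the serine racemase, at 0.16 and GLDC, the decarboxylase of the cleavage system, at -0.16. Of the mitochondrial serine carriers SFXN3 stood at -0.17 and SFXN2 at 0.14, and of the methionine cycle MAT2A at 0.14 and MTR at 0.13. Of the other genes not called, MTFMT, MAT2A, GART, ATIC, FOLR1 and DHFRL1 were also higher without overlap between the libraries. GLDC and SFXN3 were lower without overlap, as were 8.13% of all genes.

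With ISRIB added to A8, 4 of the 40 fell by edgeR, against 0.16% of all genes, and 4 by DESeq2, against 0.263%. At an unadjusted p under 0.05 there were 8 lower, against 3.18% of all genes, and 1 higher, against 2.73%, and no gene of the 40 rose by either tool. Of the 40 genes 28 lay below 0 (median -0.06), against 50.3% of all genes. SLC6A9 averaged 17.3 ± 0.6 CPM with A8 and ISRIB and 57.0 ± 8.0 CPM with A8 (SD, n = 3 each). Its log2 fold change was -1.72 (edgeR adjusted p = 1.29e-07). SLC6A9 was also lower with ISRIB in the absence of A8, at 16.9 ± 1.4 CPM in DMSO with ISRIB (SD, n = 2) and 28.8 ± 3.0 CPM in DMSO (SD, n = 3). That log2 fold change of -0.77 had the lowest p of all genes in the comparison but did not pass by edgeR (adjusted p = 0.0897), while DESeq2 called it (adjusted p = 6.14e-06). SLC6A9 did pass in edgeR without the filter on low counts (adjusted p = 2.45e-06) and in a fit of only the groups compared (0.0377). It was also called in 3 of the 11 fits with 1 library left out. In A8 with ISRIB against DMSO it fell by 0.73 on the log2 scale (edgeR adjusted p = 0.0168), a call lost without A8 with ISRIB replicate 1 or 2 or DMSO replicate 2 or 3 (adjusted p up to 0.182) and in a fit of only the groups compared (0.058). Its interaction of A8 and ISRIB was -0.95 on the log2 scale (edgeR adjusted p = 0.0443), and SLC6A9 and PSAT1 were the 2 genes called in that direction. CTH fell by 0.90 on the log2 scale (edgeR adjusted p = 0.00112). SLC1A4 and SLC1A5, which exchange neutral amino acids including serine, fell by 0.75 (edgeR adjusted p = 0.0471) and 0.34 (edgeR adjusted p = 0.0161). With each of the 11 libraries left out in turn SLC1A4 was called in 3 fits, those without a DMSO library, with adjusted p-values up to 0.255, and it was lost with the filter of 50 counts (adjusted p = 0.055) and in a fit of only the groups compared (0.0576). SLC1A5 was called in 7, and was lost without A8 with ISRIB replicate 1 or 2 or A8 replicate 1 or 3, with adjusted p-values up to 0.144.

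**Figure D4:**
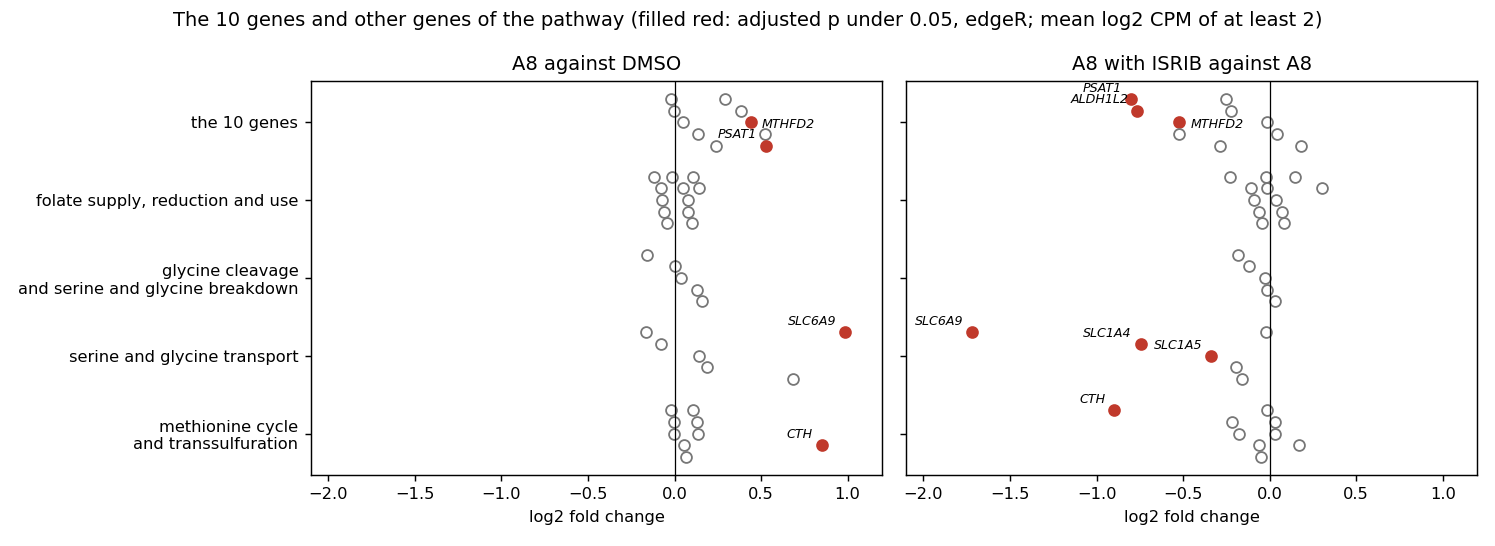
Log2 fold changes of the 10 genes and of the genes of the 4 other lists whose mean log2 CPM reached 2, where each point is 1 gene, its height within a row has no meaning, and filled red marks an edgeR adjusted p under 0.05. SLC6A9 lies farthest from 0 in both panels (0.99 and -1.72), and no gene of folate supply or glycine cleavage is filled.

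The authors' deposited table of A8 against DMSO gave PSAT1 a log2 fold change of 0.52 (adjusted p = 3.74e-07) and MTHFD2 one of 0.44 (adjusted p = 7.42e-07), from DESeq2. The same deposited table of the authors also called ALDH1L2 at 0.52 (adjusted p = 0.00542) and MTHFD1L at 0.29 (adjusted p = 0.00777), from DESeq2, both of which lay just outside the threshold by edgeR. In the authors' deposited tables of A8 with ISRIB and of DMSO with ISRIB, both against DMSO, none of the 10 genes was called by DESeq2, and PSAT1 stood at -0.28 and -0.18. For PSAT1 in A8 with ISRIB against DMSO the deposited adjusted p was 0.311, against 0.0183 by the DESeq2 Wald test run here. For SHMT2 in A8 against DMSO it was 0.129, against 0.0447 by that test, so these 2 calls are not found in the deposited tables. The deposited tables list 20395 genes and the test run here started from 15591, so the adjusted p-values rest on unlike sets of genes. Whether this accounts for the difference was not tested.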

How the data were processed

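Polyadenylated RNA of HEK293T cells was sequenced from strand-specific libraries, per the labels' protocols. The authors deposited a table of raw counts with 27671 gene symbols and 11 libraries, with GRCh37 as the build and DESeq and DESeq2 as tools, per the submitters' processing notes. No source used here names the aligner, the counting program or its strand setting. The authors also deposited 3 DESeq2 tables with base means (a signal of scaled counts), log2 fold changes, adjusted p-values and Wald statistics (a score), per the file headers. Per the labels, replicate 2 of DMSO with ISRIB was excluded by the submitters, and the columns of this group could be given to the group only (a and b).

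Counts were fitted with edgeR 4.0.16 in R 4.3.3 (filterByExpr, TMM, quasi-likelihood fit of 4 group means over all 11 libraries), giving 6 comparisons. P-values were adjusted by Benjamini-Hochberg over 15591 genes and called under 0.05. The SE came from the quasi-likelihood F statistic, and the 95% intervals include the spread between libraries. The procedure was tested on simulated data. Replicates differed by more than sampling noise (chi-square per degree of freedom 7.32 to 36.6), so none was counted as a copy. A count of 0 allows at most 0.0939 CPM, taken as 3 counts and covering counting error only. Transcript lengths and GC content came from a single GENCODE transcript of each gene on GRCh38 (88.0% of genes tested had a GC value). Promoters came from RefSeq GRCh38.p14, and no coordinates of the authors' build were used. Paralogue ratios were tested by exact permutation over libraries.

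The 10 genes and the 4 wider lists were chosen with earlier results of these data known. All 10 were described in every comparison. From the wider lists the genes called in A8 against DMSO or A8 with ISRIB against A8 were named, with up to 2 others a list of the largest absolute change in A8 against DMSO where the mean log2 CPM reached 2. The 3 genes most alike to PHGDH, PSAT1, PSPH and MTHFD2 were taken by Pearson correlation of log2 CPM. Other genes were named after their values were seen, and 1 marker of other cells is not reported here. Alternatives were the Wald test of DESeq2 1.42.0, its size factors within edgeR, no filter, a filter of 50 counts in 2 libraries, a fit of only the groups compared, a replicate block, each library left out, and, chosen after seeing the data, removal of each library's GC trend.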

Additional observations from a re-analysis of the deposited data

Results flagged for a closer look

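The effect of A8 on PSAT1 differed with ISRIB by the interaction term of edgeR, at -0.62 on the log2 scale (adjusted p = 0.0243). Without ISRIB, PSAT1 averaged 136.3 ± 6.8 CPM in A8 libraries and 94.7 ± 4.6 CPM in DMSO libraries (SD, n = 3 each). With ISRIB it averaged 78.2 ± 0.9 CPM in A8 libraries (SD, n = 3) and 83.4 ± 2.1 CPM in DMSO libraries (SD, n = 2). When each of the 11 libraries was left out in turn the value stayed between -0.66 and -0.58, while the call held in 4 fits. It was lost with the GC trend removed, at -0.52 (adjusted p = 0.113).

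The effect of A8 on SLC6A9, the glycine transporter, also differed with ISRIB by that term, at -0.95 on the log2 scale (edgeR adjusted p = 0.0443). Without ISRIB it averaged 57.0 ± 8.0 CPM in A8 libraries and 28.8 ± 3.0 CPM in DMSO libraries (SD, n = 3 each), and with ISRIB 17.3 ± 0.6 CPM in A8 libraries (SD, n = 3) and 16.9 ± 1.4 CPM in DMSO libraries (SD, n = 2). With left-out libraries the value ran from -1.04 to -0.83 and the call held in 3 fits, those without A8 with ISRIB replicate 3, A8 replicate 3 or DMSO replicate 3. The call was also lost with the GC trend removed, at -1.06 (adjusted p = 0.0557), and with the filter of 50 counts, at -0.94 (adjusted p = 0.0558).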

How the results depend on the processing

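PSAT1 and MTHFD2 in A8 against DMSO and in A8 with ISRIB against A8 kept direction and call under every alternative and every left-out library. The DESeq2 Wald test called 5 of the 10 genes higher in A8 against DMSO, 6 lower in A8 with ISRIB against A8, 1 lower in A8 with ISRIB against DMSO and 2 lower in the interaction. Without the filter on low counts the first 2 of these numbers were 4 and 5. Removing the GC trend called 4 higher in A8 against DMSO and 0 lower in the interaction. Left-out libraries gave 2 to 4 genes called higher in A8 against DMSO, 3 to 4 called lower in A8 with ISRIB against A8 and 0 to 1 called lower in the interaction. Over all genes the counts moved more. Of A8 against DMSO 11 to 59 genes were called higher and 4 to 58 lower under the other settings, against 13 and 9, and of A8 with ISRIB against A8 2 to 13 were called higher and 13 to 41 lower, against 3 and 25. The other settings gave 0 to 43 higher and 1 to 18 lower in A8 with ISRIB against DMSO with ISRIB (1 and 1 as reported), 0 to 3 and 0 to 33 in DMSO with ISRIB against DMSO (0 and 0), 0 to 22 and 0 to 20 in A8 with ISRIB against DMSO (0 and 3), and 0 to 34 and 0 to 9 in the interaction (2 and 2). The causes were not tested.

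Values near 0 changed sign. SLC6A9 in A8 with ISRIB against DMSO with ISRIB was -0.025 with the GC trend removed and ran from -0.047 to 0.12 with left-out libraries. SLC19A1 in A8 with ISRIB against A8 was -0.013 with the GC trend removed, and with left-out libraries it ran from -0.0024 to 0.073, MTR from -0.11 to 0.19 and MTHFD1 from -0.035 to 0.0020. In A8 against DMSO SHMT1 ran from -0.019 to 0.027 and MTHFD2L from -0.061 to 0.063. In A8 with ISRIB against DMSO with ISRIB MTHFD2 ran from -0.024 to 0.059 and ALDH1L2 from -0.066 to 0.097. In DMSO with ISRIB against DMSO PSPH ran from -0.097 to 0.043 and MTHFD2L from -0.098 to 0.084. MTHFD1L ran from -0.0019 to 0.0995 in A8 with ISRIB against DMSO, and SHMT1 from -0.0088 to 0.038 in the interaction. The 6 paralogue ratio differences kept their direction with 0.5 added to each count, as means of same-numbered differences, and with each of the 6 libraries compared left out.

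Same-numbered libraries deviated together no more than others over all genes (r -0.133 to 0.138 in 9 pairs). This showed no sign of pairing by number, but with so few libraries a group it cannot exclude it. With the replicate block, fitted over A8 with ISRIB, A8 and DMSO, 2 of the 10 genes were called higher in A8 against DMSO and 2 lower in A8 with ISRIB against A8, where ALDH1L2 stood at -0.77 with an adjusted p of 0.0784 in edgeR, SLC1A4 at -0.76 (0.0879) and SLC1A5 at -0.34 (0.098). SLC6A9 in A8 with ISRIB against DMSO stood at -0.73 (adjusted p = 0.185 in edgeR). Over all genes it called 13 lower in A8 with ISRIB against A8 and 4 lower in A8 against DMSO. No paired analysis was possible for DMSO with ISRIB because its columns are numbered 1 and 2 and its samples 1 and 3, so which sample the second column holds is not settled. PSPH and MTHFD2L, with 237 to 458 and 341 to 440 counts per library, had the fewest counts of the 10 genes, which limits their precision.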
